A study of Mus musculus with 4 samples.

Results

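The melanocyte lineage genes described here are 10 genes of the pigment cell, *Tyr*, *Tyrp1*, *Dct*, *Pmel*, *Mlana*, *Mitf*, *Kit*, *Sox10*, *Oca2* and *Ednrb*, among the 24421 genes of a bulk RNA-seq experiment on mouse hair follicle stem cells (HF-SCs). They were chosen by symbol and by a mean normalized count above 0 over the 4 libraries, so their presence is a condition of the choice. All 10 met it, as did 17044 genes in all. The member nearest to the bound was *Oca2*, with a mean of 0.259, and none fell outside it. HF-SCs were sorted from back skin by a gate for living cells with high H2BGFP, high CD34 and high α6 and no Sca1, and the study made 2 libraries from control mice and 2 from *miR-205* inducible mice to ask which transcripts change after 2 d of induction. Inducible mice carried *pTRE2-miR-205* and *Krt14-rtTA*, in which the keratin 14 promoter drives a transactivator in basal keratinocytes and doxycycline then switches on the microRNA. Both groups carried *Krt14-H2b-GFP*, were gender matched and were killed on postnatal day 44, after chow with doxycycline that started on day 42. The labels give the control samples as untreated, whereas the methods have both groups on the drug. The strain label is C57BL/6, which is pigmented, whereas the transgene was injected into FVB, an albino strain that carries a mutant *Tyr*, and the number of backcrosses is not given in the sources used here. The number of mice behind each library is not given either.

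Melanocyte stem cells share the bulge and the hair germ of the resting hair follicle with HF-SCs. They are neural crest cells and not keratinocytes, and at the start of hair growth they divide and give rise to the melanocytes that pass pigment to the growing hair. Pigment is made in the melanosome, a lysosome-related organelle. *Mitf* and *Sox10* encode transcription factors that switch on the genes of its enzymes and structural proteins, and *Kit* and *Ednrb* encode receptors for stem cell factor and endothelins, through which the skin controls melanocyte survival and migration. The sort was set for epithelial stem cells and not for melanocytes. Which cells gave the reads of each member was not tested. In bulk RNA, fewer cells of a type and less RNA per cell cannot be told apart.

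*miR-205*, the microRNA induced in these mice, is shown because its seed, bases 2 to 8 in capitals, sets which 3'UTRs it could pair with. The 22 bases of its mature form, miR-205-5p, lie at chr1:193507503-193507524 on the minus strand of GRCm38.p6 (RefSeq).

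miR-205-5p, 5' to 3': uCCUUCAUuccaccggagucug

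The match to this seed, ATGAAGG, stood in an annotated 3'UTR of 1845 of 14287 genes (12.9%) and in those of 0 of the 10 melanocyte lineage genes. When only the longest transcript of each gene was read, the share over genes was 10.8% and the members' count was again 0. This says only that these letters are not in the annotated 3'UTRs.

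The promoters of *Tyr*, *Tyrp1* and *Dct*, the enzymes of melanin synthesis, are shown because they share a motif to which MITF binds. It is CATGTG or its reverse complement CACATG, in capitals. Each run is the 250 bases before the annotated start on GRCm38.p6 (RefSeq), read along the gene's own strand from 5' to 3'. *Tyr* is read from chr7:87493513-87493762 on the minus strand, *Tyrp1* from chr4:80833963-80834212 on the plus strand and *Dct* from chr14:118052247-118052496 on the minus strand.

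Tyr: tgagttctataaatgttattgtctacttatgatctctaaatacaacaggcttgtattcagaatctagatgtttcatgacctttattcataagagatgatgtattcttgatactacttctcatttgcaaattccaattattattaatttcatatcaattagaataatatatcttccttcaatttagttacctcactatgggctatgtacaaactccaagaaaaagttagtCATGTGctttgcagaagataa

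Tyrp1: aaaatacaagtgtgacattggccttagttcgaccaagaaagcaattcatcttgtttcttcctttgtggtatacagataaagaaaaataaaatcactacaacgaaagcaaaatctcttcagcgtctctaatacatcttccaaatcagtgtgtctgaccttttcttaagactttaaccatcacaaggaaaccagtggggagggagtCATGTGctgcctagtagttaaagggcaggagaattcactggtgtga

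Dct: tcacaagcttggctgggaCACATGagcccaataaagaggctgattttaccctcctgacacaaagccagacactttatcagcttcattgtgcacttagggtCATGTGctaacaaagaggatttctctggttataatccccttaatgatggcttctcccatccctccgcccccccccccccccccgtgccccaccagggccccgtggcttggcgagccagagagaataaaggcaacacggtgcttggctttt

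The motif began 21 bases before the start of *Tyr*, 46 before that of *Tyrp1*, and 150 and 232 before that of *Dct*. The 10 letters around it, for *Dct* at the site 150 bases before the start only, were identical in these genes, gtCATGTGct, with the motif in capitals as above. This longer word stood on either strand in 61 of 32851 promoter windows (0.186%), which also hold the 50 bases after a start. It was picked as the longest word that these promoters share, so their carrying it is no test. Of the 10 members, 7 had a promoter in the RefSeq table, which lists 10 windows for them, each reaching from 250 bases before to 50 after a start. CATGTG on either strand stood in 4 of the 7 genes (*Dct*, *Oca2*, *Tyr* and *Tyrp1*), or 4 of their 10 windows, against 14.2% of all windows. ACAAAG, a word bound by SOX proteins, stood on either strand in 3 genes (*Dct*, *Oca2* and *Tyrp1*), or 3 of the 10 windows, against 18.7% of all windows. The E-box CACGTG stood in 0 of the 10, against 7.15%. These matches describe letters and were not tested for binding.

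The values come from the authors' mean normalized count over the 4 libraries, the deposited measure that is not a comparison of the groups. A normalized count is the number of reads of a gene in a library divided by that library's size factor, so that libraries of unequal depth can be set side by side. Because the mean was deposited with 15 digits, it could be resolved into whole reads of each of the 4 libraries for each of 14591 genes, all those whose mean lay above 0 and at most at 1000. These libraries are named A to D from the deepest to the shallowest, and the depth of A was 1.73-fold that of D. In the genes so resolved, A held 3337862 reads, B 3165843, C 2594711 and D 1912745. No column ties a library to a mouse, replicate or group, so A to D are given as 4 libraries with no group, no value below compares induced with control mice, and no test between libraries as replicates was made. Intervals in brackets are 95%, exact Poisson for a count and exact binomial for a ratio, and cover counting error only.

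The sorted cells carried the listed markers of HF-SCs. *Cd34* and *Itga6* (α6) were part of the gate and the *Krt14* promoter drove its H2BGFP, so these are no independent sign of cell type. All 14 listed HF-SC genes were above 0, with a median of the authors' mean of 5597, from 590.3 for *Tcf7l1* to 146090 for *Krt5*, and *Krt15* was at 119883 and *Cd34* at 14575. The melanocyte lineage genes were far lower. Their median mean was 61.9 against 116.9 over all 17044 genes above 0, 5 of 10 were above 50, and the means of all 10 added up to 3149, or 0.0241% of the sum over all genes. Most of that came from *Mitf* alone at 2024, and the 9 members with resolved reads added up to 1125. In order of the authors' mean the members ran *Mitf* at 2024, *Dct* at 498.3, *Pmel* at 219.0, *Tyrp1* at 218.6, *Kit* at 91.3, *Ednrb* at 32.5, *Tyr* at 28.6, *Sox10* at 26.4, *Mlana* at 9.77 and *Oca2* at 0.259. *Pmel* and *Tyrp1* had no fixed order, since *Tyrp1* was higher in libraries A and D and *Pmel* in B and C. *Ednrb*, *Tyr* and *Sox10* had none either, since *Ednrb* led in A and B and *Tyr* in C. *Dct* was higher than every other member with resolved reads in all 4 libraries. *Dct*, *Pmel*, *Tyrp1*, *Tyr* and *Mlana* had reads in all 4 libraries, though *Mlana* had only 1 read in D, and *Oca2* had 1 read in all. Per kilobase of exon, the scale on which genes can be compared with each other, the mean level was 325 for *Mitf*, 201 for *Dct*, 103 for *Pmel*, 77.3 for *Tyrp1*, 15.7 for both *Mlana* and *Kit*, 9.72 for *Sox10*, 8.05 for *Ednrb*, 5.29 for *Tyr* and 0.0653 for *Oca2*. In the plot of mean levels by gene list, which is not per length, the median of the members (61.9) lay below those of the HF-SC (5597), fibroblast (662), myeloid and Langerhans (184) and Schwann cell (160) genes and above those of the endothelial (17.3), mast cell (15.4) and T cell (3.37) genes.

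**Figure D1:**
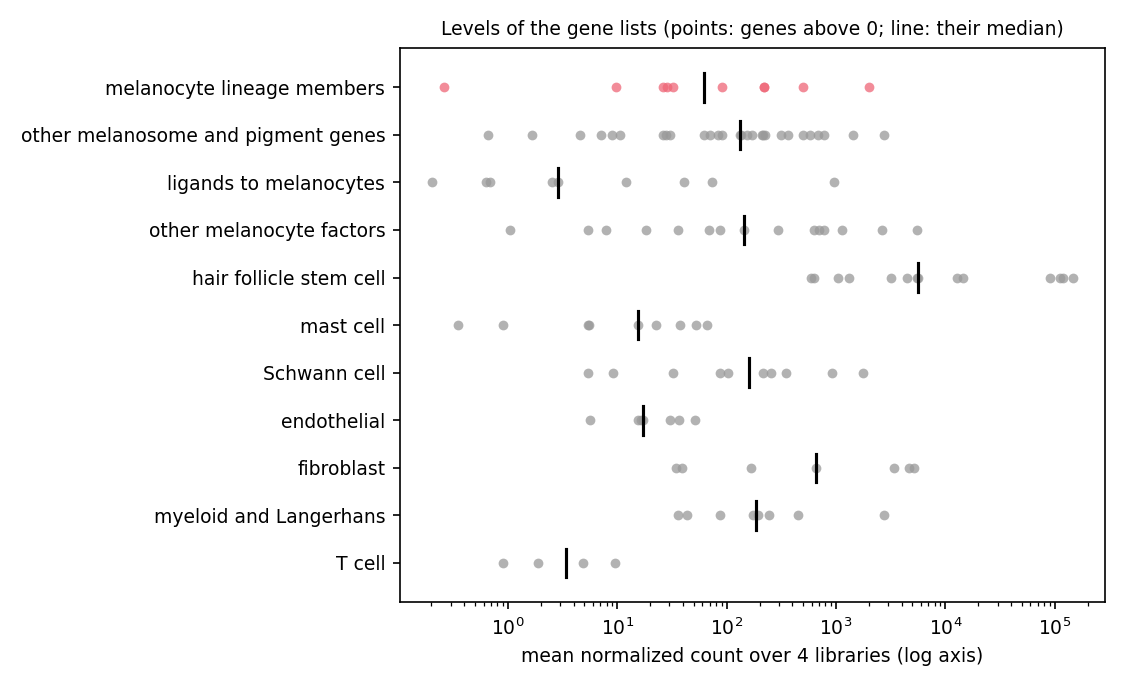
Authors' mean normalized count over the 4 libraries (log axis, not per length) of each gene with a mean above 0 in each gene list (rows). Points are genes and vertical lines are the medians. The 10 melanocyte lineage genes spread from 0.259 (*Oca2*) to 2024 (*Mitf*), and the lowest HF-SC gene is at 590.3.

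*Dct*, *Tyrp1* and *Tyr* encode the enzymes of melanin synthesis, dopachrome tautomerase, tyrosinase-related protein 1 and tyrosinase, the rate-limiting enzyme. *Dct* (chr14:118412014-118451468, minus strand, NCBIM37) is also the usual marker of melanocyte stem cells. It had 480 reads in library A, 464 in B, 1006 in C and 122 in D, or normalized counts of 388.2, 393.6, 1041 and 170.3. Libraries A and B did not differ beyond counting error (ratio 0.986 [0.866, 1.12]), C was 2.68-fold above A and 2.64-fold above B, and D was the lowest. The ratio of C to D was 6.11 [5.06, 7.44].

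*Tyrp1* (chr4:80480027-80497623, plus strand) had 296, 146, 413 and 60 reads in A, B, C and D, or normalized counts of 239.4, 123.9, 427.4 and 83.8. C was again the highest and D the lowest, with a ratio of 5.10 [3.88, 6.81]. Unlike *Dct*, *Tyrp1* differed between A and B, by 1.93-fold [1.58, 2.37]. *Tyr* (chr7:94574910-94641943, minus strand) was much scarcer, with 16, 27, 69 and 5 reads, or normalized counts of 12.9, 22.9, 71.4 and 6.98. Its ratio of C to D was 10.2 [4.18, 32.5], an interval that holds the ratio of *Dct*. Thus the enzyme that starts melanin synthesis was represented by 117 reads in all, against 2072 of *Dct* and 915 of *Tyrp1*.

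*Pmel* and *Mlana* encode melanosome proteins, the amyloid fibre of the early melanosome and a small membrane protein that assists its maturation. *Pmel* (chr10:128143314-128157294, plus strand) had 235, 172, 445 and 57 reads in A, B, C and D, or normalized counts of 190.0, 145.9, 460.5 and 79.6. C was highest, D lowest, and the ratio of C to D was 5.79 [4.39, 7.77]. *Mlana* (chr19:29772411-29782938, plus strand) had 16, 6, 19 and 1 reads, or normalized counts of 12.9, 5.09, 19.7 and 1.40, which follow the same order as *Tyrp1* with much wider errors (C to D 14.1 [2.24, 585], against the 1 read in D). *Oca2* (chr7:63495130-63791887, plus strand), which encodes an anion channel of the melanosome membrane, had 0 reads in A, B and D and 1 read in C. By the limit of 3 reads that a count of 0 allows, which is one-sided and so lower than the upper end of the intervals given elsewhere, its normalized count could reach 2.43 in A, 2.54 in B and 4.19 in D, so no ratio was formed and its level was at the limit of detection.

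Of the regulators, *Sox10* could be read by library and *Mitf* could not. *Mitf* (chr6:97757052-97971352, plus strand), the transcription factor on which the melanocyte lineage depends, was the most abundant member, at the 93.3rd percentile of genes above 0. Its mean is above 1000, 7 sets of whole reads gave the same digits, and its level in single libraries could not be resolved, with values between 486 and 4061 possible in A alone. The RefSeq table holds 3 promoter windows for *Mitf*, and the gene-level count does not separate the isoforms. Which cells gave its reads was not tested, so its level cannot be read as that of melanocytes alone. Its relatives *Tfeb* and *Tfe3*, which are widely expressed, had means of 292.5 and 782.1. *Sox10* (chr15:78985343-78994920, minus strand), which marks melanocytes and Schwann cells alike, had 38, 38, 33 and 6 reads in A, B, C and D, or normalized counts of 30.7, 32.2, 34.2 and 8.38. It was low in D and level across the other libraries, with C to A at 1.11 [0.675, 1.82], C to B at 1.06 [0.644, 1.74] and C to D at 4.08 [1.69, 11.9].

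The receptors differed from each other. *Kit* (chr5:75970941-76052747, plus strand), the receptor for stem cell factor, had 93, 104, 164 and 23 reads in A, B, C and D, or normalized counts of 75.2, 88.2, 169.7 and 32.1. It followed the pigment genes, with C highest, D lowest and a ratio of 5.29 [3.40, 8.57]. *Ednrb* (chr14:104213842-104243390, minus strand), the endothelin receptor type B, had 43, 71, 27 and 5 reads, or normalized counts of 34.8, 60.2, 27.9 and 6.98. It was highest in library B and not in C. *Ednrb* in C was at 0.464 [0.286, 0.732] of B, where *Kit* in C was 1.92-fold above B, and *Ednrb* in B was 8.63-fold [3.53, 27.4] above D. *Kit* is expressed by mast cells and *Ednrb* by other cells of the skin, so neither marks melanocytes alone.

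**Figure D2:**
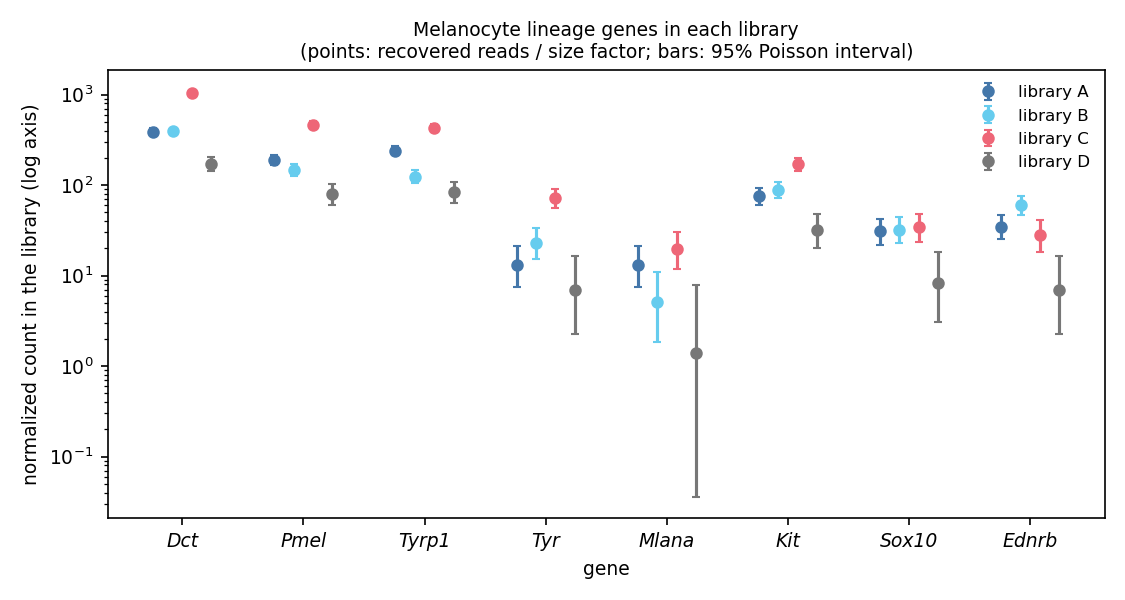
Normalized count (log axis) of 8 members in libraries A to D, which carry no group (*Mitf* was not resolved and *Oca2* had 1 read in all). Points are libraries and bars are exact Poisson intervals. *Dct*, *Pmel*, *Tyrp1*, *Tyr* and *Kit* are highest in C and lowest in D, *Sox10* is level over A, B and C, and *Ednrb* is highest in B.

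Of the 9 members with resolved reads, library C was the highest in 8 and library D the lowest in 8, and both held for 7. The count for C includes *Oca2* with its single read. The pattern of C and D and the 4-fold bound used below were chosen after these values were seen and are a description. Of 9318 genes with a mean of 20 to 1000, C was the highest and D the lowest in 952 (10.2%), against 6 of the 7 members in this range. C was at least 4-fold above D in 77 of the 9318 genes (0.826%), against 7 of 7 members, whose ratios ran from 4.00 to 10.2, while the median ratio over all 9318 genes was 1.02. The lowest ratios, of *Ednrb* (4.00 [1.52, 13.3]) and *Sox10* (4.08 [1.69, 11.9]), have intervals that reach far under 4-fold. Those of *Kit* [3.40, 8.57] and *Tyrp1* [3.88, 6.81] also reach below it. The mean that sets the range from 20 includes library C, so the range favours scarce genes that are high in C. *Tyr*, which has the highest ratio, is in the range only through C, since its mean without C was 14.3. The plot of library shares shows the members at the edge of the cloud of genes.

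**Figure D3:**
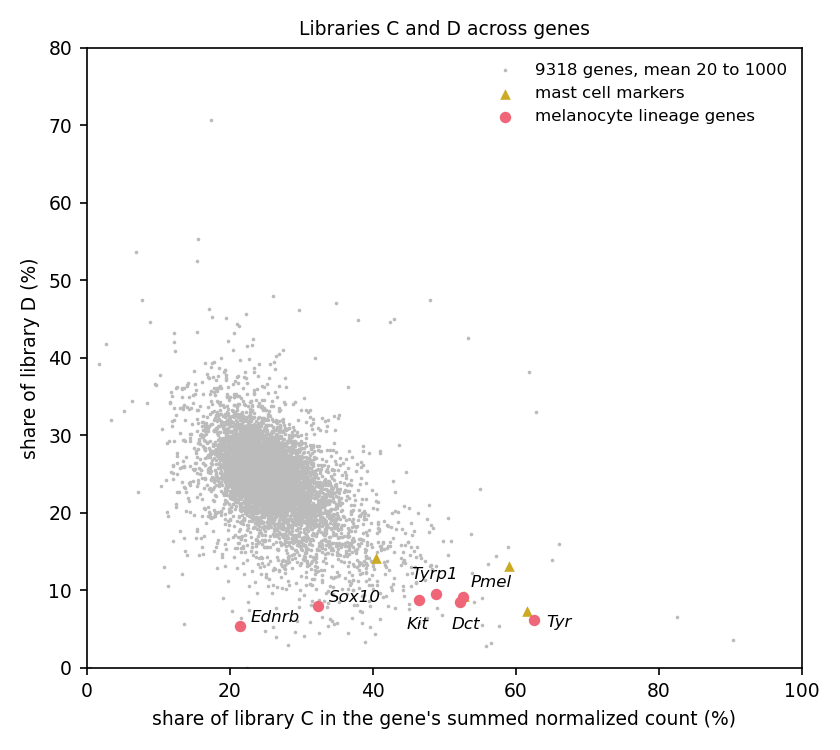
Share of library C (x axis, %) and of library D (y axis, %) in the summed normalized count of each gene with a mean of 20 to 1000 (grey, 9318 genes). Red circles are the 7 members in this range. Yellow triangles are the mast cell markers in this range, *Hdc*, *Mcpt4*, *Cpa3* and *Cma1*. The other listed mast cell markers have means under 20 and are not drawn. *Tyr*, *Dct*, *Pmel*, *Tyrp1* and *Kit* lie to the right with D shares under 10%, and *Ednrb* and *Sox10* lie low and further to the left.

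The 6 genes of pigment synthesis and the melanosome (*Tyr*, *Tyrp1*, *Dct*, *Pmel*, *Mlana* and *Oca2*) were then summed. The sum was 1043 reads in A, 815 in B, 1953 in C and 245 in D, or normalized counts of 843.4 [793.0, 896.2], 691.4 [644.7, 740.5], 2021 [1932, 2113] and 342.0 [300.5, 387.6]. Library C therefore held 51.9% of the sum, A 21.6%, B 17.7% and D 8.77%, against 25.1%, 24.4%, 25.3% and 24.7% for the median gene. The ratio of C to D was 5.91 [5.17, 6.78]. *Dct* makes up most of the sum, and without it library C held 51.5% and D 9.01%.

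Reads per 100 reads of *Dct* were also formed within each library, a measure that does not use the size factors. *Pmel* stood at 49.0, 37.1, 44.2 and 46.7 reads per 100 reads of *Dct* in A, B, C and D, all with overlapping intervals, and *Kit* at 19.4, 22.4, 16.3 and 18.9, also overlapping. *Tyrp1* ranged from 31.5 [25.9, 38.0] in B to 61.7 [53.2, 71.4] in A. *Ednrb* was at 15.3 [11.7, 19.7] in B against 2.68 [1.76, 3.93] in C, and *Sox10* at 8.19 [5.72, 11.4] in B against 3.28 [2.25, 4.64] in C. *Tyr* ranged from 3.33 [1.89, 5.47] in A to 6.86 [5.29, 8.76] in C. These intervals overlap, but the normalized count of *Tyr* was 5.52-fold [3.17, 10.2] higher in C than in A, where that of *Dct* was 2.68-fold [2.40, 3.00] higher, and these do not. Thus the proportion to *Dct* differed between libraries beyond counting error for *Tyrp1* and *Ednrb*. It also did so between C and both A and B for *Sox10* and, by the ratio of C to A, for *Tyr*. The intervals of *Pmel* and *Kit* overlapped in every pair of libraries. Overlapping intervals do not show equal proportions, so whether those of *Pmel* and *Kit* were constant was not settled.

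Likeness to the pigment sum was measured for 9314 genes outside it as the summed absolute difference between the 4 library shares, which is 0 for the same pattern. It was 0.129 for *Kit*, the 8th smallest of all, 0.406 for *Sox10*, at rank 558, and 0.675 for *Ednrb*, at rank 8795, where the median gene was at 0.542. The 5 genes most like the sum were *Pappa2* (0.0494), *Flg2* (0.0727), *Btc* (0.0916), *Dkk2* (0.0943) and *Ereg* (0.109). *Flg2*, a protein of the cornified epidermis, had normalized counts of 513.5, 481.0, 1537 and 251.3 in A, B, C and D, and *Ereg*, an EGF family ligand, had 97.0, 81.4, 283.5 and 64.2. None of these 5 is a pigment gene by its known role, and a likeness over 4 libraries is a description with no test.

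The other genes of the pigment cell gave a mixed picture. Of 29 further melanosome and pigment genes, 28 were above 0, with a median mean of 132. Most of these are parts of trafficking complexes that many cells use, and the summed count of the 26 with resolved reads was nearly level between C and D (1.12 [1.07, 1.17]), with C highest in 14 and both C highest and D lowest in 3. *Rab38*, which moves enzymes to melanosomes, was level at 330.1 in C and 321.1 in D. *Gpnmb*, a relative of *Pmel* that macrophages express as well, had 195.7, 207.0, 371.5 and 93.5 in A, B, C and D. *Mlph*, which links melanosomes to the motor protein myosin Va, had 11, 5, 27 and 1 reads. The transporter genes *Slc45a2* and *Slc24a5* and the channel gene *Trpm1* had means of 4.61, 7.12 and 8.98, with the most reads in C for each of them. These counts were small, with 8 reads in C against 7 in A for *Slc45a2* and 15 against 12 for *Trpm1*. Library D was the lowest for none of them. Normalized counts were 2.79 in D and 1.70 in B for *Slc45a2*, 5.58 in D and 1.62 in A for *Slc24a5*, and 5.58 in D and 5.09 in B for *Trpm1*. *Mc1r*, the receptor for melanocortin, had 0, 3, 4 and 0 reads.

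Ligands and transcription factors of the pathway were read in the same way. Of 10 ligands, 9 had a row and all of these were above 0, with a median mean of 2.87. *Kitl*, the ligand of KIT, was the most abundant, with 927.5, 994.2, 1032 and 913.0 in A, B, C and D, so it was level where *Kit* was not. *Edn1* was at 51.8, 43.3, 104.5 and 96.3 and *Edn2* at 48.5, 21.2, 29.0 and 64.2, and neither was lowest in D, where *Ednrb* was. *Edn3*, the endothelin that acts on melanocytes in development, had 1, 2, 0 and 0 reads. Agouti, a ligand that turns melanocytes to yellow pigment, is listed under its symbol *a* and had 2, 1, 2 and 0 reads. Of 15 further transcription factors of the lineage, all 15 were above 0, led by *Sox9* at 5555, *Tfap2b* at 2622 and *Tfap2a* at 1138, which keratinocytes express as well. For the 12 with resolved reads the summed ratio of C to D was 1.02 [0.960, 1.08], with C highest and D lowest in 3. This sum was led by *Tfe3* at 782.1, *Snai2* at 704.7 and *Creb1* at 629.9, so it says little about the scarcer factors. Of those with means below *Usf1* at 145.4, the ratio was 3.95 for *Pax3*, 3.77 for *Irf4* and 2.59 for *Foxd3*. It was 2.47 for *Sox5*, 2.28 for *Zeb2* and 1.02 for *Lef1*, and *Tfec* had 3 reads, all in D. No intervals were formed for these ratios, and some rest on few reads. *Foxd3* had 7 reads in C and 2 in D, and *Sox5* had 10 and 3. Both were highest in B, at 7.63 against 7.24 in C for *Foxd3* and 13.6 against 10.3 for *Sox5*. *Pax3*, which acts upstream of *Mitf*, had 26, 12, 32 and 6 reads, or normalized counts of 21.0, 10.2, 33.1 and 8.38.

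Markers of other cells that a sort can hold were set beside the pigment sum. The summed mast cell genes were also highest in C and lowest in D. All 9 listed were above 0, with a median mean of 15.4. C was the highest in 7 of them and D the lowest in 3, and both held for 3. Their summed normalized count was 135.9 in A, 156.9 in B, 421.2 in C and 110.3 in D, a C to D ratio of 3.82 [2.99, 4.92]. *Mcpt4* and *Cma1*, both mast cell proteases, had ratios of 8.36 and 5.68, *Cpa3* and *Hdc* had 4.50 and 2.86, and *Gata2*, *Tpsb2* and *Ms4a2* had 2.31, 1.85 and 1.48. *Fcer1a* and *Tpsab1* were nearly at 0, with means of 0.349 and 0.900. Unlike the pigment sum, the mast cell sum was not higher in A than in B, and its values in A [116.1, 158.0] and B [135.1, 181.3] have overlapping intervals. The sum for 7 endothelial genes was 207.8, 172.2, 220.4 and 90.7, the sum for 4 resolved of 7 fibroblast genes 1075, 806.7, 1115 and 619.8, and that for 7 resolved of 8 myeloid and Langerhans genes 973.6, 1647, 1481 and 809.7, so library D was lowest for each of these lists too, at C to D ratios of 2.43, 1.80 and 1.83. Their part in the pigment pattern was not tested. For 9 resolved of 10 Schwann cell genes, the other neural crest cell that expresses *Sox10*, the sum was 1994, 1843, 2214 and 1883, a C to D ratio of 1.18 [1.10, 1.26]. The 4 T cell genes with a row gave 0.741 [0.356, 1.54], and the only HF-SC genes below the limit of 1000, *Tcf7l1* and *Tcf7l2*, gave 0.870 [0.797, 0.949].

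**Figure D4:**
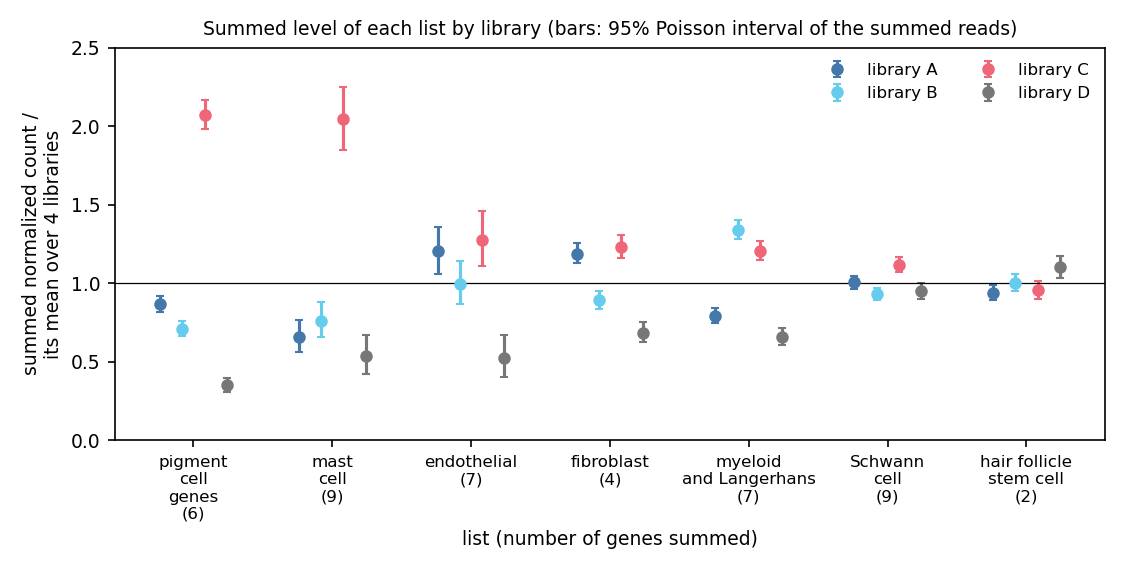
Summed normalized count of 7 gene lists in libraries A to D, divided by its mean over the 4 libraries (y axis, from 0), over genes with resolved reads. Points are libraries, which carry no group, and bars are exact Poisson intervals. The pigment cell genes (C to D 5.91) and the mast cell genes (3.82) stand highest in C and lowest in D, and the HF-SC and Schwann cell genes lie near their mean in all 4 libraries.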

How the data were processed

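RNA of sorted HF-SCs was sequenced from 2 control and 2 *miR-205* inducible libraries. Per the labels and methods, the authors used HISAT2 2.1.0 for the alignment of 150-nt reads, SAMtools 1.3.1 for file conversion, HTSeq for gene counts and DESeq2 for the comparison of groups. The sources used here do not give the version of DESeq2 or the annotation. The genome is mm10 in the labels and NCBI37/mm10 in the methods. The deposited table holds, for 24421 genes, a mean normalized count, which is a signal the authors averaged over all 4 libraries, each scaled by its size factor, and the log2 fold change, its standard error, the Wald statistic, the p-value and the adjusted p of the authors' own comparison. The latter columns were not used. The table has 0 columns of values of single samples, so no comparison of induced with control mice was made here.

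Each mean is a sum of whole reads times 4 steps, 1 per library, where a step is what 1 read adds. The steps were read from genes with 1 read, and the 4 whole numbers were searched for all 14591 genes with a mean above 0 and up to 1000. Each had exactly 1 solution within 1 unit of the last of 15 digits. The search was tested on simulated data of 4 libraries and returned 100% of 1414 genes, 0 of them wrong. Resolved genes hold 20.5% of the summed mean, so the full depth of a library is unknown.

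The members and gene lists were chosen with earlier results of these data known. The genes named are the members, genes of the lists, the 3 most abundant genes of a list and the 5 genes with a mean of at least 20 whose library shares lay closest to those of the summed pigment genes. Places of genes are on NCBIM37 with GENCODE vM1, which also gave exon unions and 3'UTRs. Sequences are from RefSeq on GRCm38.p6, and no coordinate was converted. Alternatives were other lengths, other sets of genes for the percentile, leaving out each library, rows at 0, synonyms, a wider tolerance, other sums and scalings, and other windows. The first listed promoter of each gene was added after the data were seen. Software was numba 0.67.0, scipy 1.17.1, pandas 2.3.3, numpy 2.4.6 and matplotlib 3.10.9 under Python 3.11.15.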

Additional observations from a re-analysis of the deposited data

How the results depend on the processing

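The median level of the members per kilobase was 15.7 with exon unions and 16.6 with the longest transcript. Their median percentile was 40.9 among genes above 0, 34.4 among genes with a mean of at least 1 and 6.15 among genes with a mean over 50, the last 2 over fewer genes at the low end. The summed mean of the 9 resolved members was 1125, and leaving out 1 library moved it to between 748.6 (without C) and 1370 (without D). Of 36 such values for single members, 17 stayed within counting error and 19 did not. Without C the mean of *Dct* was 317, that of *Pmel* 138.5, that of *Mlana* 6.47 and that of *Tyr* 14.3, and that of *Oca2* was 0. With *Dct* left out of the pigment sum, library A held 23.9% and B 15.6%. Relative to *Tcf7l1* and *Tcf7l2*, library D held 7.75%. The median of the further melanosome genes was 133 without its gene at 0. That of the T cell genes moved from 3.37 to 1.88 when synonyms were matched, which gave *Trac* the row of *Abcg5*, a sterol transporter gene. A tolerance 10 times as wide left 1 solution for each of the 9 resolved members, and the counts of motifs and seed matches among members were the same with other windows. No paired analysis was possible because the deposited mean carries no replicate numbers and the libraries read from it have no group.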
